A study of Mus musculus with 2 samples.

Results

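The endosomal Toll-like receptors of the mouse and the proteins that carry their signal were followed as 9 genes, chosen by name from the 32285 listed: the receptors Tlr3, Tlr7, Tlr8, Tlr9 and Tlr13, the chaperone Unc93b1, the adaptor Myd88, the kinase Irak4 and the transcription factor Irf5. All 9 were found in the deposited tables. The cells were immune-enriched cells of mouse tumours, measured by droplet 3′ RNA sequencing in 1 library from mice given motolimod, a synthetic ligand of TLR8, and 1 library from control mice. The labels name 5 mice per group and do not state whether they were pooled; the tumour model, strain, sex, age, dose and control vehicle are not given in the sources used here. Both groups passed the same dissociation and the same enrichment on CD45, the surface protein of blood-derived cells. With 1 library per group no difference has a replicate check, no p-value is given, and every interval covers counting error only.

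These receptors sit in the membrane of endosomes and lysosomes and read nucleic acids that a cell has taken up. TLR7 and TLR8 sense single-stranded RNA and its breakdown products, TLR3 senses double-stranded RNA, TLR9 senses unmethylated CpG DNA, and TLR13, which humans lack, senses bacterial ribosomal RNA. UNC93B1 carries the receptors from the endoplasmic reticulum to the endosome, MyD88 and IRAK4 relay the signal of all of them but TLR3, and IRF5 is among the factors that then switch on cytokine genes. In mice TLR8 was long regarded as less responsive than human TLR8 to synthetic ligands, and TLR7 and TLR8 are encoded side by side on the X chromosome.

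In GRCm38 coordinates, Tlr7 lies at chrX:167304929-167330558 and Tlr8 at chrX:167242696-167264329, both on the minus strand. The gap between them is 40599 bases and holds 0 other annotated genes. The third X-linked receptor gene, Tlr13, lies apart at chrX:106143204-106160493 on the plus strand. The others lie on 5 autosomes, Tlr3 at chr8:45395665-45411080, Tlr9 at chr9:106222598-106226883, Unc93b1 at chr19:3935186-3949340, Myd88 at chr9:119335934-119341411, Irak4 at chr15:94543643-94581815 and Irf5 at chr6:29526625-29541871. Tlr3, Myd88, Irak4 and Irf5 overlap another counted gene, and how reads in such overlaps were assigned is not given in the sources used here.

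The stretches around the start sites are shown for the 4 receptor genes that had an entry, since each was carried by particular cell types. They are 300 bases each, 250 before and 50 after the start in RefSeq on GRCm38.p6, written in the direction of the gene. The table used had an entry for 7 of the 9 genes, and Tlr7 and Unc93b1 are named only. Capitals mark matches on either strand to 3 motifs: GAGGAA, the core bound by PU.1, a factor of myeloid cells; TTGCNNAA, a C/EBP motif; and GGGA and TTCC with any 2 bases between them, an NF-κB motif. The first stretch is chrX:167264280-167264579 on the minus strand, the second chrX:106143025-106143324 on the plus strand, the third chr9:106222348-106222647 on the plus strand and the fourth chr8:45410331-45410630 on the minus strand. The fourth, that of Tlr3, lies wholly inside the gene interval given above, as does the stretch used for Myd88. RefSeq and the annotation of those intervals place these starts differently.

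Tlr8: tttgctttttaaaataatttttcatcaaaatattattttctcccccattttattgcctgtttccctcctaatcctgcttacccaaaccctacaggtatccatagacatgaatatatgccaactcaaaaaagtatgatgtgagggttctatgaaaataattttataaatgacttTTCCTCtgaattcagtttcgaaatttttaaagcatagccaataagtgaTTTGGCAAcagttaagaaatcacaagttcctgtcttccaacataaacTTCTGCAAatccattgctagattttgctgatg

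Tlr13: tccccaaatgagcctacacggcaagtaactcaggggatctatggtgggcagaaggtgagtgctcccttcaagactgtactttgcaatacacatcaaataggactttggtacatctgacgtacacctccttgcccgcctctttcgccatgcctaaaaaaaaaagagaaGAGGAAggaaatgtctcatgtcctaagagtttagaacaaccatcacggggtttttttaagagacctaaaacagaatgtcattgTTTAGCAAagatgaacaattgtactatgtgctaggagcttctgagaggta

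Tlr9: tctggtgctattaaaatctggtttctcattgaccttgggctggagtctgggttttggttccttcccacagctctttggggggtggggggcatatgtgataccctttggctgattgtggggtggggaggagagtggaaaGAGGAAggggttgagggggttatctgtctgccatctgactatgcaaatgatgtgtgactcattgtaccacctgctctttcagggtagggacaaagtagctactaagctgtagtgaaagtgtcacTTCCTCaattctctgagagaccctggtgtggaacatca

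Tlr3: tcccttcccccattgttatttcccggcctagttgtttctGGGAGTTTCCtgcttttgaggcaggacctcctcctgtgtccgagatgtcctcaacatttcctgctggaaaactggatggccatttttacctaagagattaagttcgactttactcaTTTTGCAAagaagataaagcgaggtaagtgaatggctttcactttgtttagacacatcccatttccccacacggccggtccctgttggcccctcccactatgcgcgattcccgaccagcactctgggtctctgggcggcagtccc

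The PU.1 core occurred 1 time in the Tlr8 stretch, 1 time in that of Tlr13, 2 times in that of Tlr9 and 0 times in that of Tlr3, against 28.3% of 32851 promoters with a match. The C/EBP motif, found in 10.8% of promoters, occurred 2 times for Tlr8, 1 time each for Tlr13 and Tlr3, and 0 times for Tlr9. The NF-κB motif, found in 1.47%, was seen in the Tlr3 stretch alone of these 4. Myd88 had 1 match to the interferon response motif, GAAA followed after any 2 bases by GAAA, which 3.44% of promoters hold. No match to these 4 motifs was found for Irak4 or Irf5. A match describes letters and not a bound site.

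The motolimod library held 62057685 UMIs over 10037 barcodes, and the control library 127609378 UMIs over 8099 barcodes. After filters, 9314 motolimod cells with a median of 3742.5 UMIs and 7484 control cells with a median of 14055 UMIs were kept, so depth differed between the groups. The libraries shared 113 barcode sequences. Cells were placed in gates by their own markers: macrophage by C1qa, C1qb, C1qc and 4 others, monocyte by Ly6c2, Vcan, Plac8, Ccr2 and F13a1, monocyte-macrophage by both sets, and neutrophil by S100a8, S100a9, Retnlg and 4 others. The macrophage gate held 2402 motolimod and 2971 control cells, the monocyte-macrophage gate 1299 and 859, the monocyte gate 469 and 442, the neutrophil gate 2375 and 475, the T cell gate 332 and 321, and the keratin-defined epithelial gate 55 and 548. Some markers left out of the gates were highest in their own gate in both libraries, among gates of at least 20 cells. These were Cd68 for macrophages, Il1r2 and Trem1 for neutrophils, and Cd2, Lck and Thy1 for T cells. The statement does not cover the other check markers, among them Mrc1 and Fcgr1 for macrophages and Mmp9 for neutrophils. It covers none of those chosen for the NK cell, B cell, dendritic and epithelial gates, so the check of the gates is partial. Scrublet called 0 doublets in each library at its automatic threshold, so its calls could not be used. Barcodes with markers of several lineages, 917 (9.85%) with motolimod and 886 (11.8%) in the control, were set apart instead. Of the 694 motolimod and 448 control barcodes with the highest Scrublet scores, 360 and 185 were among these.

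The target gene Tlr8 was carried by mononuclear phagocytes, the macrophage, monocyte-macrophage and monocyte gates together. These gates held 80.9% of the 434 Tlr8 UMIs in the motolimod library and 83.9% of the 589 in the control library. Of the UMIs of all genes they held 55.5% with motolimod and 51.5% in the control. Tlr7 had 75.3% of its UMIs there with motolimod and 81.3% in the control. Tlr9 had 74.0% and 81.7%, and Unc93b1 76.6% and 80.3%, in the same order of libraries. Most of the remaining Tlr8 UMIs, 15.0% with motolimod and 13.6% in the control, were in the barcodes of several lineages.

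Tlr13 and Tlr3 were spread otherwise. Neutrophils held 25.8% of the Tlr13 UMIs with motolimod and 4.28% in the control, a library with fewer neutrophils. Of the UMIs of all genes they held 9.21% with motolimod and 0.975% in the control. Dendritic cells held 4.75% of the Tlr3 UMIs with motolimod and 14.2% in the control, against 1.47% and 2.70% of the UMIs of all genes. Epithelial cells held 1.78% of the Tlr3 UMIs with motolimod and 9.06% in the control, below their 5.00% and 19.0% of all UMIs. Mononuclear phagocytes held 71.8% of the Tlr3 UMIs with motolimod and 51.8% in the control, the latter near their share of all UMIs. Such shares follow the number and depth of the cells of each kind as well as the level per cell.

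**Figure D1:**
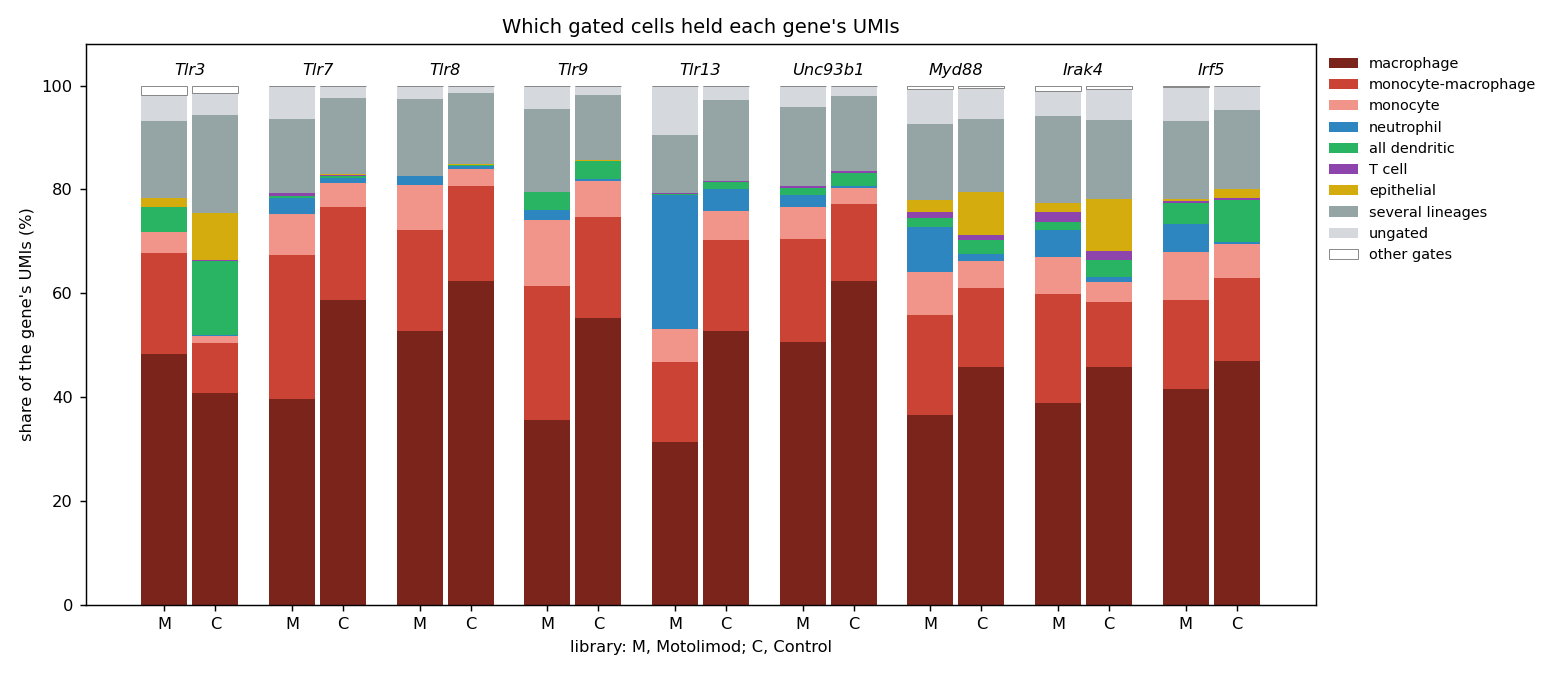
Share of each gene's UMIs (%, vertical axis) held by each gate, with a bar for the motolimod library (M) left of the bar for the control library (C) for each of the 9 genes. The red segments, the 3 mononuclear phagocyte gates, hold 80.9% of Tlr8 UMIs with motolimod and 83.9% in the control, while the blue neutrophil segment is widest for Tlr13.

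The level of Tlr8 was low in every gate. Levels are UMI counts scaled to the total UMIs of a gate (CPM), and since each UMI stands for a transcript's 3′ end they were not divided by gene length. In macrophages Tlr8 was at 10.6 CPM with motolimod (229 UMIs, 95% interval 9.29 to 12.1) and 7.51 CPM in the control (367 UMIs, 6.76 to 8.32), a ratio of 1.41 (1.19 to 1.67). That is short of the 1.5-fold used here as the line for naming a difference. The ratio rested on the deep cells: among cells of 3000 to 10000 UMIs it was 0.976, and as a mean over cells, each with equal weight, it was 1.04.

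In monocyte-macrophages Tlr8 was at 9.26 CPM with motolimod and 8.45 CPM in the control, a ratio of 1.10 (0.81 to 1.47). In monocytes it was at 11.2 CPM with motolimod (38 UMIs) and 5.23 CPM in the control (19 UMIs), a ratio of 2.15 (1.21 to 3.94). Among the mononuclear phagocyte gates only the monocyte gate put Tlr8 past 1.5-fold, on those few UMIs. In the motolimod library the intervals of the 3 gates overlapped, and in the control library the monocyte interval (3.15 to 8.17) also reached those of the other 2.

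Outside mononuclear phagocytes few Tlr8 UMIs were seen. Neutrophils had 7 Tlr8 UMIs in 2375 motolimod cells (1.24 CPM, 0.499 to 2.56) and 4 in 475 control cells (3.24 CPM, 0.882 to 8.29). The control interval reaches the level of control macrophages. T cells had 0 UMIs in both libraries, with floors of 1.58 and 1.07 CPM at 3 counts. All dendritic gates together had 0 UMIs in 73 motolimod cells and 1 UMI in 245 control cells. The epithelial gate had 0 UMIs with motolimod and 1 UMI in the control, although its cells were the deepest, with medians of 54192 and 42882 UMIs. NK cells, B cells, fibroblasts and endothelial cells had 0 Tlr8 UMIs in both libraries, over 69 and 15, 4 and 4, 14 and 19, and 4 and 9 cells.

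Few cells showed a Tlr8 UMI. With each cell thinned to 1000 UMIs, 25 of 2343 motolimod macrophages (1.07%, 0.692 to 1.57) and 21 of 2951 control macrophages (0.712%, 0.441 to 1.09) had any. These intervals overlap, and no difference in the share was detectable at this depth. Without thinning the order turned, with 7.58% of motolimod and 10.5% of control macrophages, whose medians were 6612.5 and 16056 UMIs. In T cells, taken here to lack the receptor, the thinned share was 0 of 329 with motolimod and 0 of 319 in the control. At 3 counts this allows up to 0.912% and 0.940% of cells with a UMI. The control limit lies above the 0.712% of control macrophages, so the thinned share does not set the 2 apart in that library. The unthinned T cell share was 0 at medians of 4474 and 5289 UMIs. At 3000 UMIs per cell, Tlr8 was seen in 2.84% of motolimod and 2.12% of control macrophages.

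Tlr7, the neighbouring gene and RNA sensor, was higher with motolimod in all 3 mononuclear phagocyte gates. In macrophages it was at 29.4 CPM with motolimod (634 UMIs, 27.2 to 31.8) and 16.4 CPM in the control (804 UMIs, 15.3 to 17.6), a ratio of 1.79 (1.61 to 1.99). In monocyte-macrophages it was at 48.8 CPM with motolimod and 19.3 CPM in the control, a ratio of 2.54 (2.16 to 2.98). In monocytes it was at 37.5 CPM with motolimod and 17.3 CPM in the control, a ratio of 2.16 (1.59 to 2.97).

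The order of the gates also differed. With motolimod, monocyte-macrophages were highest, and their interval (44.4 to 53.6 CPM) lay above that of macrophages. In the control library the 3 gates had overlapping intervals between 13.3 and 22.2 CPM. Neutrophils were lower, at 8.50 CPM with motolimod and 9.71 CPM in the control, a ratio of 0.88 (0.46 to 1.81). Dendritic cells had 6 Tlr7 UMIs in each library, 6.65 CPM with motolimod and 1.75 CPM in the control.

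The thinned share of macrophages with a Tlr7 UMI was 3.88% with motolimod (91 of 2343, 3.14 to 4.75) and 1.97% in the control (58 of 2951, 1.497 to 2.53). The intervals did not overlap. Unthinned, the shares were 21.0% with motolimod and 21.5% in the control. T cells had 2 of 329 (0.608%) with motolimod and 0 of 319 in the control after thinning, and 10 Tlr7 UMIs with motolimod against 1 in the control without it, a ratio of 14.8 whose interval ran from 2.10 to 641. Subtracting the T cell level of the same library as free RNA left the macrophage Tlr7 ratio at 1.501, a setting chosen after seeing the data.

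**Figure D2:**
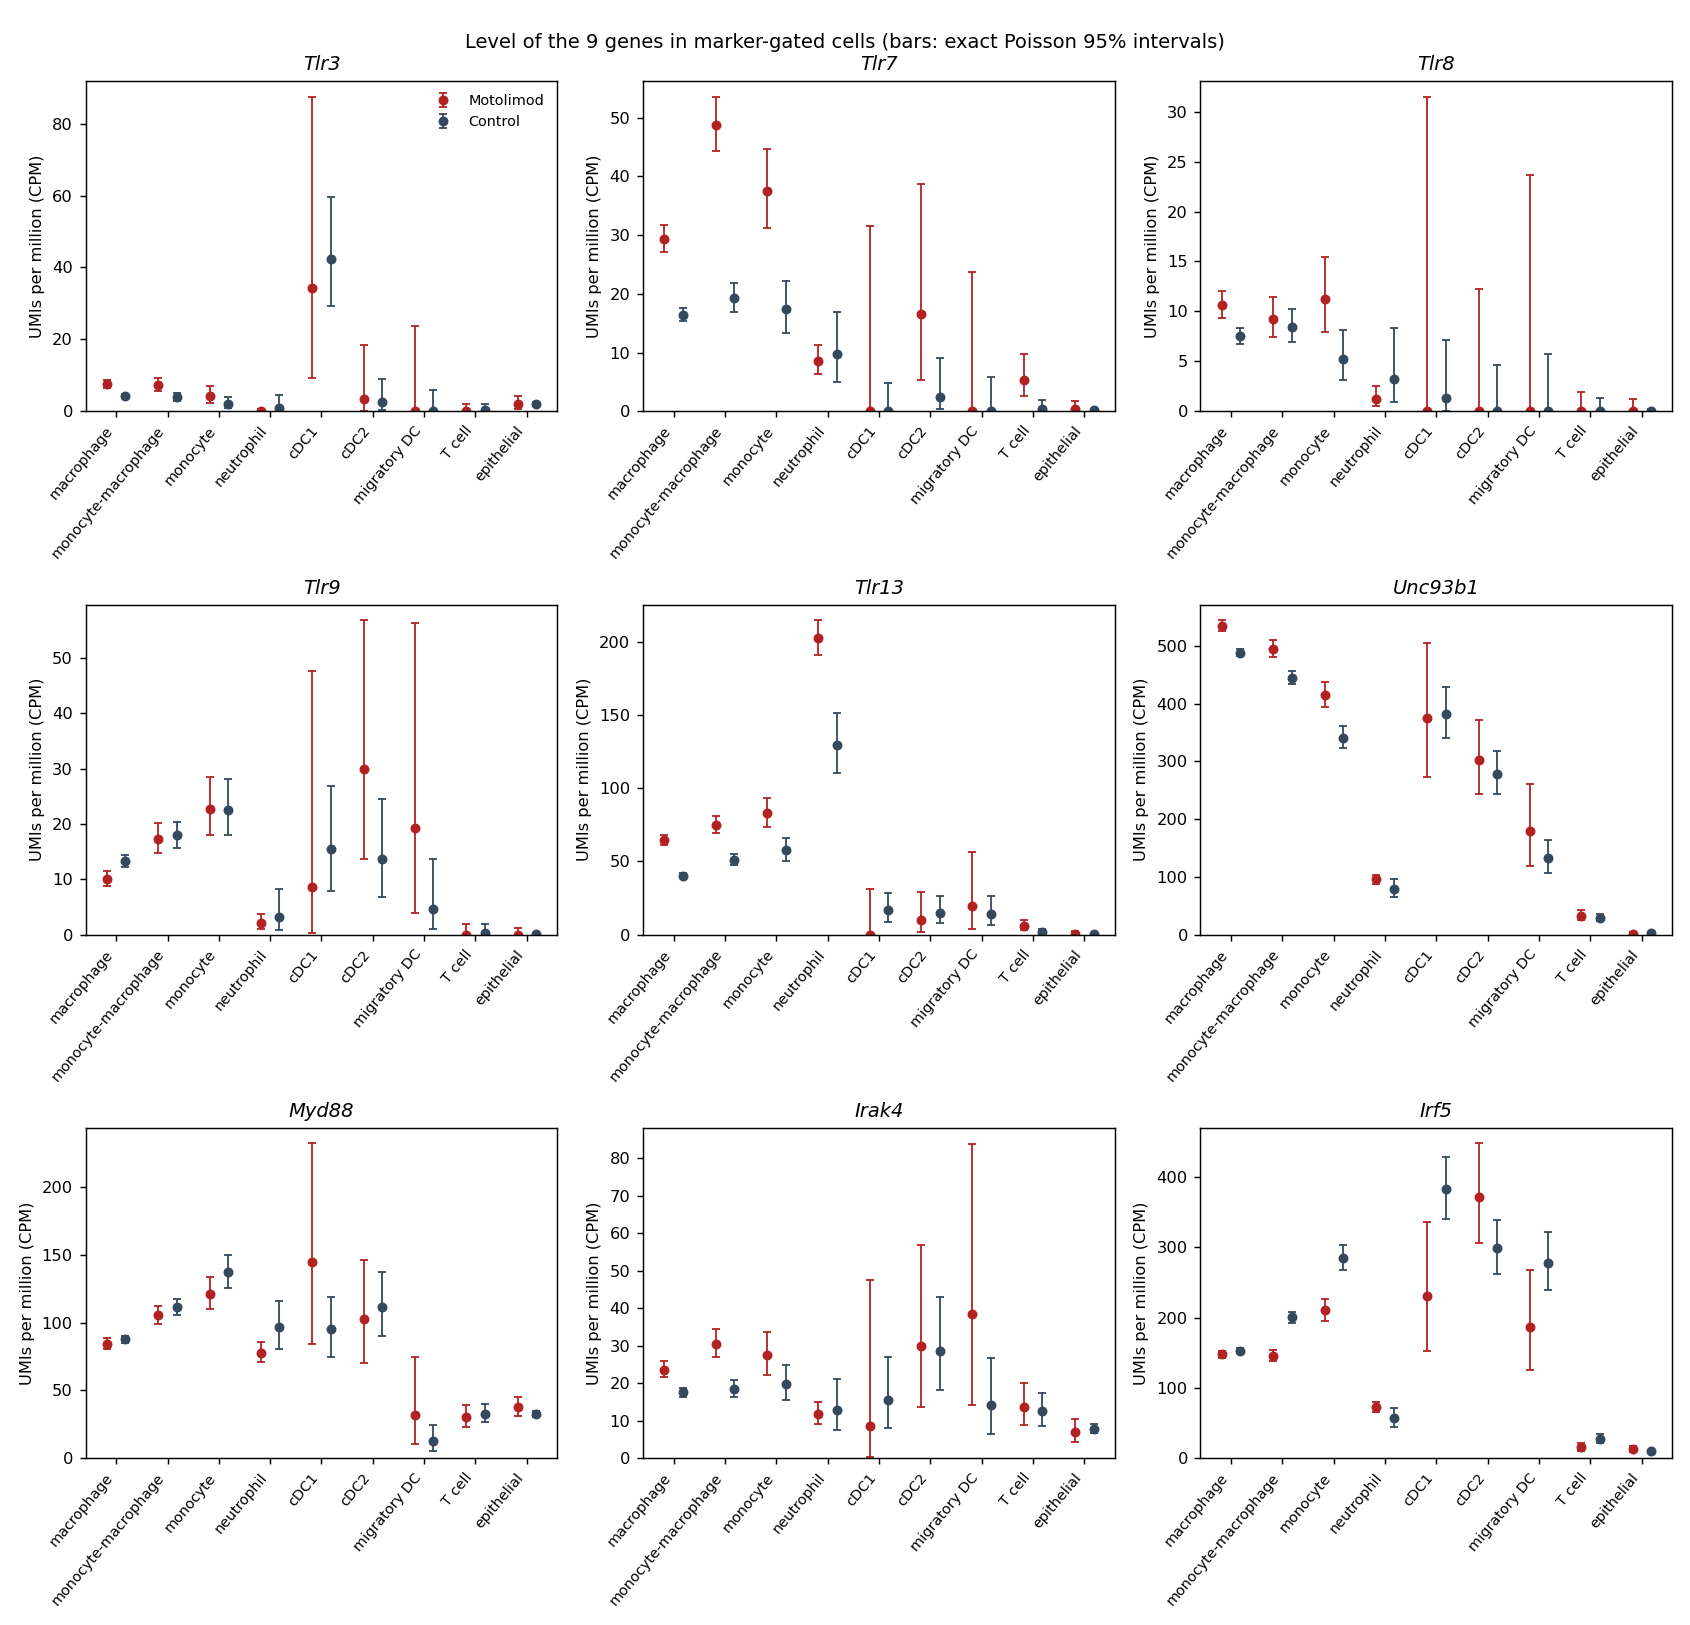
Level in CPM (vertical axis, a scale per gene) of each of the 9 genes in 9 gates, with the motolimod library in red left of the control library in dark blue; points are CPM of the summed UMIs and bars exact Poisson 95% intervals. Tlr7 is higher with motolimod in the 3 mononuclear phagocyte gates, Tlr13 peaks in neutrophils, Tlr3 in cDC1, and Unc93b1 is at 535 CPM with motolimod in macrophages and 1.96 CPM in epithelial cells.

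The difference in Tlr7 varied with the depth of the cells. In macrophages of 800 to 3000 UMIs, Tlr7 was at 56.9 CPM with motolimod (641 cells, 43.9 to 72.5) and 18.1 CPM in the control (188 cells, 6.63 to 39.3). In those of 3000 to 10000 UMIs it was at 48.5 CPM with motolimod (884 cells) and 22.5 CPM in the control (537 cells). In those of 10000 UMIs and over it was at 20.8 CPM with motolimod (877 cells, 18.6 to 23.2) and 15.9 CPM in the control (2246 cells, 14.8 to 17.2). The level was higher with motolimod in each range. In the deepest range, which held most control macrophages, the ratio was 1.30 (1.14 to 1.49) and so short of 1.5-fold, against 2.16 (1.68 to 2.80) from 3000 to 10000 UMIs. The part of depth in the result was not tested further.

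Tlr8 followed another course over the same cells. It had 2 and 3 UMIs in the shallowest range, 1.75 CPM with motolimod and 9.03 CPM in the control. From 3000 to 10000 UMIs it was at 9.78 CPM with motolimod and 10.0 CPM in the control, and from 10000 UMIs at 11.6 CPM with motolimod (9.93 to 13.4) and 7.29 CPM in the control (6.52 to 8.12). Only in the deepest range were the Tlr8 intervals apart.

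**Figure D3:**
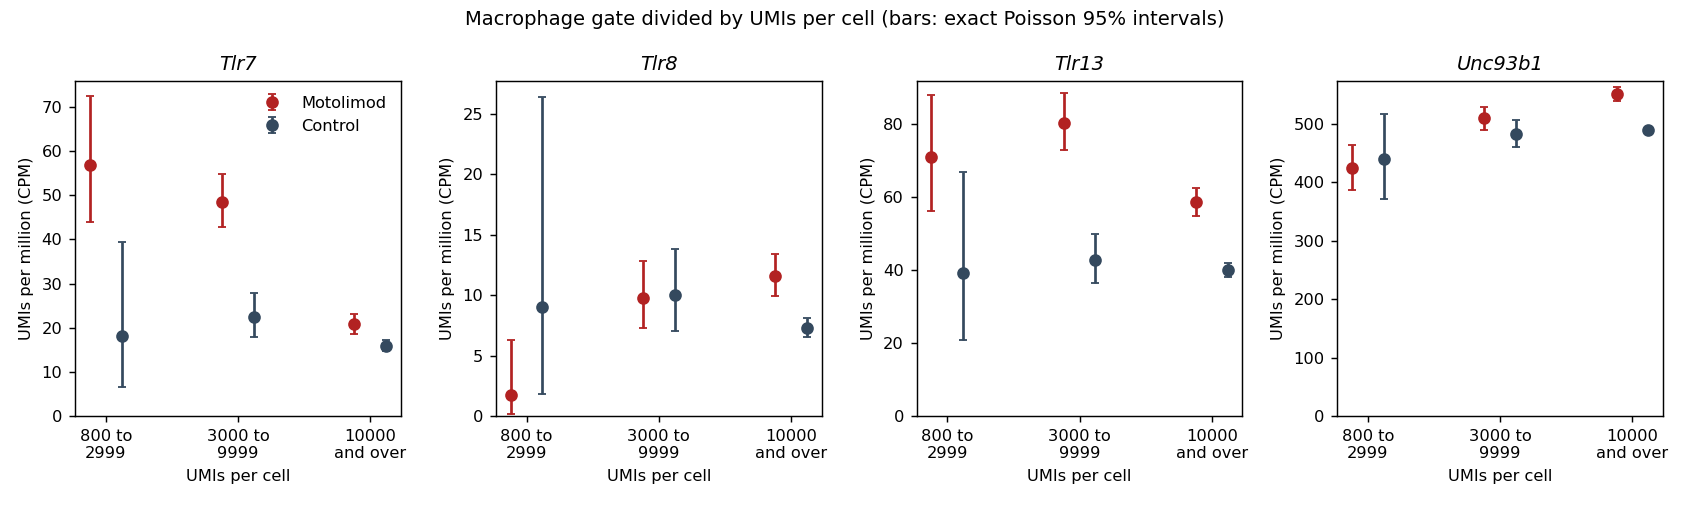
Level in CPM (vertical axis) of Tlr7, Tlr8, Tlr13 and Unc93b1 in macrophage-gate cells of 3 ranges of UMIs per cell (horizontal axis), with the motolimod library in red left of the control library in dark blue and exact Poisson 95% intervals. Tlr7 with motolimod is at 56.9, 48.5 and 20.8 CPM from the shallowest to the deepest range, while Unc93b1 stays between 424 and 552 CPM.

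The balance of the neighbouring genes moved accordingly. In monocyte-macrophages Tlr8 made up 15.9% of the summed Tlr7 and Tlr8 UMIs with motolimod (12.9 to 19.3) and 30.5% in the control (25.8 to 35.6). In macrophages it made up 26.5% with motolimod (23.6 to 29.6) and 31.3% in the control (28.7 to 34.1). In monocytes the share was 23.0% with motolimod and 23.2% in the control. At 3000 UMIs per cell, 6 of the 94 motolimod phagocytes with a Tlr8 UMI also had Tlr7 (6.38%, 2.38 to 13.4), against 12.1% of those without Tlr8 (11.0 to 13.3). In the control 8 of 92 did (8.70%, 3.83 to 16.4), against 5.70% of those without (5.00 to 6.47). The intervals overlapped in both libraries.

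Tlr13 was the receptor with the highest level in mononuclear phagocytes, and neutrophils had more of it than any mononuclear phagocyte gate. In neutrophils it was at 203 CPM with motolimod (1144 UMIs, 191 to 215) and 129 CPM in the control (160 UMIs, 110 to 151), a ratio of 1.57 (1.33 to 1.86). It was 1.29 with counts thinned to 1000 UMIs and 2.40 under a stricter cell filter, and was past 1.5-fold in 6 of 11 alternatives. The thinned share of neutrophils with a Tlr13 UMI was 16.2% with motolimod (14.7 to 17.8) and 12.7% in the control (9.71 to 16.1), with overlapping intervals. The unthinned shares were 31.5% with motolimod and 26.1% in the control at medians of 2048 and 1916 UMIs. T cells had 3 of 329 (0.912%) with motolimod and 1 of 319 (0.313%) in the control after thinning.

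In macrophages Tlr13 was at 64.6 CPM with motolimod and 40.3 CPM in the control, a ratio of 1.60 (1.496 to 1.72). In monocyte-macrophages it was at 75.1 CPM with motolimod and 51.1 CPM in the control (1.47, 1.32 to 1.64), and in monocytes at 83.0 CPM with motolimod and 57.5 CPM in the control (1.44, 1.20 to 1.73). All 3 intervals lay above 1, and the macrophage ratio alone was past 1.5-fold. By depth, the macrophage ratio was 1.81 (1.002 to 3.55) from 800 to 3000 UMIs and 1.88 (1.56 to 2.27) from 3000 to 10000 UMIs. In macrophages of 10000 UMIs and over it was 1.46 (1.35 to 1.59), short of 1.5-fold. Neutrophil RNA moved in the same direction in this gate: all 7 neutrophil markers were seen there, summing to 269 CPM with motolimod and 92.1 CPM in the control, against 75545 and 84318 CPM in neutrophils, and their part in the result was not tested.

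Tlr3, the double-stranded RNA sensor, was highest in type 1 dendritic cells, which present antigen of other cells (cDC1, gated on Xcr1, Clec9a and 3 others). These had 34.2 CPM with motolimod (4 UMIs in 7 cells) and 42.4 CPM in the control (33 UMIs in 40 cells, 29.2 to 59.5). Dendritic cells with markers of more than 1 dendritic gate had 34.1 CPM with motolimod and 31.0 CPM in the control. The gate named for type 2 dendritic cells (cDC2, gated on Cd209a, Flt3, Zbtb46 and Kmo) had 1 UMI with motolimod and 2 in the control. That gate needed at least 2 of its markers, which in the cDC1 gate summed to 128 CPM with motolimod and 134 CPM in the control. The part of the gate rules in how Tlr3 divided between these gates was not tested. Migratory dendritic cells, gated on Ccr7, Fscn1 and 3 others, had 0 Tlr3 UMIs in both. Endothelial cells had 2 UMIs in 4 motolimod cells (24.0 CPM) and 7 in 9 control cells (21.5 CPM).

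In macrophages Tlr3 was lower than in cDC1, at 7.56 CPM with motolimod (6.44 to 8.81) and 4.23 CPM in the control (3.68 to 4.85), a ratio of 1.79 (1.45 to 2.20). It was 1.20 in macrophages of 3000 to 10000 UMIs and 1.18 with counts thinned to 1000 UMIs, both short of 1.5-fold. In monocyte-macrophages the ratio was 1.87 (1.27 to 2.76), on 65 motolimod and 49 control UMIs, and it was 1.31 with barcodes of several lineages kept and 3.18 in cells of 3000 to 10000 UMIs. In monocytes it was 2.15 with an interval from 0.81 to 6.28, on 14 motolimod and 7 control UMIs, so it holds no direction. Neutrophils had 0 Tlr3 UMIs with motolimod and 1 in the control, and epithelial cells 1.96 CPM with motolimod and 1.91 CPM in the control.

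Tlr9, the DNA sensor, did not pass 1.5-fold in any mononuclear phagocyte gate. In macrophages it was at 10.0 CPM with motolimod (216 UMIs) and 13.3 CPM in the control (649 UMIs), a ratio of 0.75 (0.64 to 0.88) that was short of 1.5-fold lower. In monocyte-macrophages it was at 17.3 CPM with motolimod and 17.9 CPM in the control (0.97, 0.78 to 1.19), and in monocytes at 22.7 CPM with motolimod and 22.6 CPM in the control (1.01, 0.73 to 1.39). In both libraries the order ran from monocytes through monocyte-macrophages down to macrophages, and the monocyte and macrophage intervals were apart.

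Dendritic cells carried Tlr9 at 23.3 CPM with motolimod (21 UMIs, 14.4 to 35.6) and 11.7 CPM in the control (40 UMIs, 8.34 to 15.9). Those intervals overlap, and neither gate of type 1 nor of type 2 held more than 12 Tlr9 UMIs in a library. Plasmacytoid dendritic cells and B cells, the classical Tlr9-bearing cells, were nearly absent, with 1 and 4 cells in the motolimod library and 2 and 4 in the control. The 2 control plasmacytoid cells held 2 Tlr9 and 2 Tlr7 UMIs.

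The chaperone gene Unc93b1 was the most abundant of the 9 in mononuclear phagocytes and differed little between libraries. In macrophages it was at 535 CPM with motolimod (525 to 545) and 488 CPM in the control (482 to 494), a ratio of 1.10 (1.07 to 1.12). In monocytes it was at 415 CPM with motolimod and 341 CPM in the control (1.22, 1.13 to 1.31). Its thinned share of macrophages was 37.1% with motolimod and 37.7% in the control.

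The cell types were set well apart by this gene. Dendritic cells had 326 CPM with motolimod and 294 CPM in the control, neutrophils 95.7 and 79.3 CPM, T cells 33.1 and 29.2 CPM, and epithelial cells 1.96 and 2.32 CPM, each with motolimod first. Tlr13 exceeded Unc93b1 in neutrophils of both libraries, where Unc93b1 had 540 UMIs with motolimod and 98 in the control.

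The adaptor gene Myd88 and the kinase gene Irak4 were present in every large gate. Myd88 was at 84.5 CPM with motolimod and 87.7 CPM in the control in macrophages (0.97, 0.91 to 1.02), and at 37.5 and 32.3 CPM in epithelial cells, whose Unc93b1 was near 2 CPM. In neutrophils Myd88 was at 77.8 CPM with motolimod and 97.1 CPM in the control (0.80, 0.65 to 0.99). Irak4 in macrophages was at 23.7 CPM with motolimod and 17.6 CPM in the control, a ratio of 1.34 (1.20 to 1.502). In monocyte-macrophages it was at 30.5 CPM with motolimod and 18.5 CPM in the control, a ratio of 1.65 (1.38 to 1.97). That ratio was 1.32 with counts thinned to 1000 UMIs, short of 1.5-fold, and 2.80 after the T cell level was subtracted.

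Irf5, the cytokine gene activator, was highest in dendritic cells among gates of at least 50 cells, at 349 CPM with motolimod (311 to 390) and 375 CPM in the control (355 to 397). In monocytes it was at 211 CPM with motolimod and 286 CPM in the control, a ratio of 0.74 (0.67 to 0.81). In monocyte-macrophages the ratio was 0.73 (0.68 to 0.78), and in macrophages 0.97 (0.93 to 1.01). These ratios were short of 1.5-fold lower. In T cells Irf5 was at 15.2 CPM with motolimod (29 UMIs) and 27.8 CPM in the control (78 UMIs), a ratio of 0.55 (0.35 to 0.85). All 7 macrophage markers were seen in the T cell gate, summing to 140 CPM with motolimod and 153 CPM in the control, and their part in this ratio was not tested.

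Set against all genes with at least 20 UMIs over both libraries, the 9 genes stood as follows. In macrophages 3 of 9 were at least 1.5-fold higher with motolimod (Tlr3, Tlr7 and Tlr13), where 11.0% of 12865 genes were, and 0 of 9 were lower, where 8.91% were. The median log2 ratio was 0.43 over the 9 and 0.04 over all genes. In monocyte-macrophages 3 of 9 were higher (Tlr3, Tlr7 and Irak4), where 14.5% of genes were, and 0 were lower, where 16.7% were. In monocytes 3 of 9 were higher (Tlr3, Tlr7 and Tlr8), where 14.6% were, and 0 were lower, where 6.90% were. The interval of Tlr3 there, on 14 and 7 UMIs, reached below 1.

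Neutrophils and T cells had fewer of the genes above that minimum. In neutrophils 6 were measured, 1 was higher (Tlr13), where 25.7% of 7991 genes were, and 0 were lower, where 19.1% were, so the neutrophil share is near the background. In T cells 4 were measured, 0 were higher, where 17.2% were, and 1 was lower (Irf5), where 10.1% were. The Tlr7 ratio stood above 94.7% of the genes compared in macrophages and 97.6% of those in monocyte-macrophages.

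**Figure D4:**
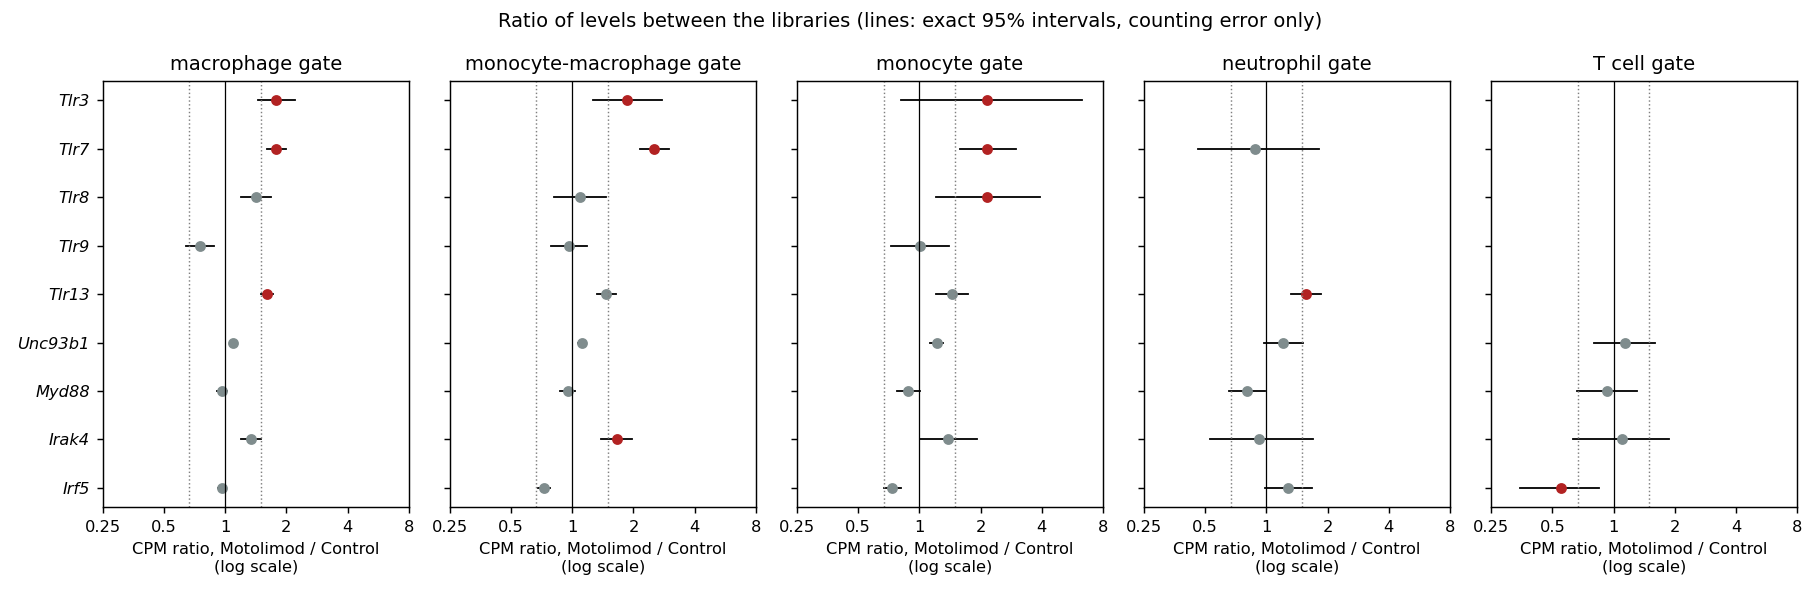
Ratio of levels, motolimod over control (horizontal axis, log scale), for the genes with at least 20 UMIs in 5 gates; lines are exact 95% intervals, dotted lines mark 1.5-fold either way and red points lie past it. Tlr7 lies to the right of 1.5 in the 3 mononuclear phagocyte gates, and Unc93b1 and Myd88 lie near 1 in all 5.

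The macrophage gate was divided by further markers into 6 groups named by them and a remainder, with the cells that met several of these sets kept apart. Tlr7 was highest in 3 of these, apart from 5 control cells. It was at 63.8 CPM with motolimod (60 UMIs in 210 cells) and 32.5 CPM in the control (8 UMIs in 31 cells) in Cbr2 Tppp3 macrophages. In Lyve1 Cd209 macrophages it was at 56.9 CPM with motolimod (8 UMIs) and 39.9 CPM in the control (30 UMIs). Gpnmb Cd36 macrophages had 60.0 CPM in 122 motolimod cells, while the 5 control cells had 0 UMIs. These groups differed in size between the libraries, and their intervals overlapped between the libraries.

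In the groups with at least 100 cells in each library, Tlr7 passed 1.5-fold in the remainder and Tlr8 in 2 named groups. Cycling macrophages, gated on Mki67, Top2a and 3 others, had Tlr7 at 13.3 CPM with motolimod and 13.5 CPM in the control (0.98, 0.68 to 1.40), the lowest level of the groups in either library apart from that 0. Macrophages below the marker minimum of every group had Tlr7 at 29.8 CPM with motolimod and 15.9 CPM in the control (1.87, 1.58 to 2.21), and Tlr8 at a ratio of 1.47 (1.13 to 1.92). Tlr8 was highest in Cd72 Vcam1 macrophages with motolimod, at 18.1 CPM with motolimod and 10.3 CPM in the control (1.76, 1.17 to 2.62). Mmp12 Mmp13 macrophages had Tlr8 at 10.4 CPM with motolimod (18 UMIs) and 4.59 CPM in the control (25 UMIs), a ratio of 2.26 (1.16 to 4.31). The Tlr7 ratios of these 2 groups were 1.29 (0.920 to 1.78) in Cd72 Vcam1 and 1.39 (0.955 to 2.01) in Mmp12 Mmp13 macrophages. In each group the Tlr7 and Tlr8 intervals overlap, and the difference between the genes was not tested.

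Tlr9 and Unc93b1 were low in the Mmp12 Mmp13 group, named for matrix-degrading enzymes. Tlr9 was at 2.30 CPM with motolimod (4 UMIs) and 5.69 CPM in the control (31 UMIs), a ratio of 0.40 whose interval from 0.104 to 1.15 reached above 1. Unc93b1 was at 316 CPM with motolimod and 337 CPM in the control. In Cd72 Vcam1 macrophages Tlr9 was at 17.6 CPM with motolimod and 19.1 CPM in the control, and Unc93b1 at 715 and 634 CPM. Lyve1 Cd209 macrophages had Unc93b1 at 875 CPM with motolimod (727 to 1044) and 645 CPM in the control (589 to 705). Tlr13 was highest in Gpnmb Cd36 macrophages, at 123 CPM with motolimod and 163 CPM in the 5 control cells.

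Past 1.5-fold higher were 2 of 9 genes in Cd72 Vcam1 macrophages (Tlr8 and Tlr13), where 12.7% of genes were, and 0 were lower, where 7.60% were. In Mmp12 Mmp13 macrophages 2 of 9 were higher (Tlr8 and Tlr13), where 10.8% were, and 1 was lower (Tlr9), where 9.18% were. In cycling macrophages 1 of 9 was higher (Tlr3), where 9.61% were, and 0 were lower, where 8.16% were. In the undivided remainder 3 of 9 were higher (Tlr3, Tlr7 and Tlr13), where 12.9% were, and 0 were lower, where 8.56% were. The cells that met several marker sets, 145 with motolimod and 392 in the control, had Tlr7 at 32.3 CPM with motolimod and 15.4 CPM in the control (2.10, 1.54 to 2.85), and Tlr3 at a ratio of 1.505 (0.805 to 2.69). Tlr9 was at 5.71 CPM with motolimod (12 UMIs) and 14.1 CPM in the control (113 UMIs), a ratio of 0.40 (0.20 to 0.73). In these cells 2 of 9 genes were higher, where 9.75% were, and 1 was lower, where 8.62% were.

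**Figure D5:**
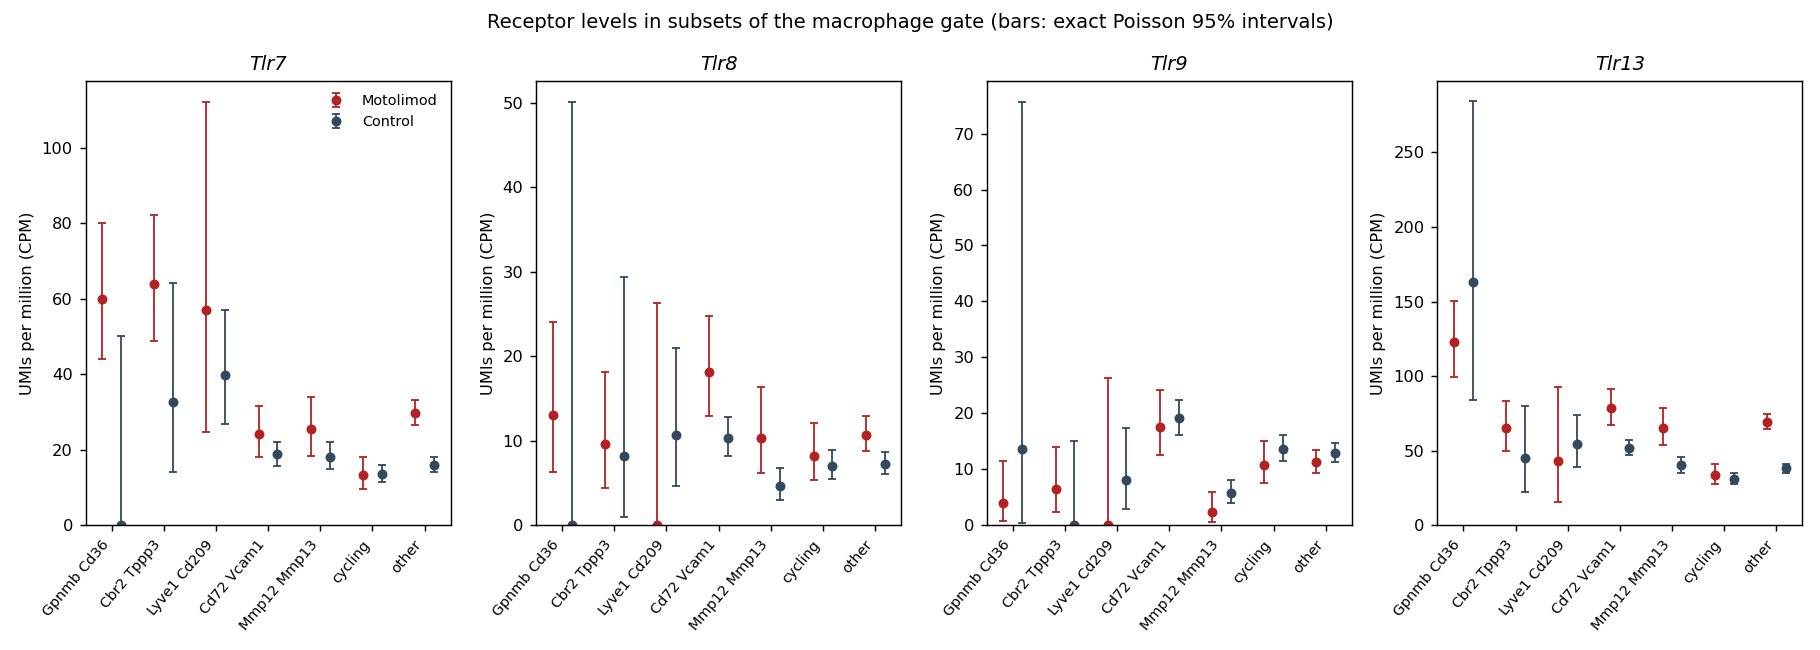
Level in CPM (vertical axis) of Tlr7, Tlr8, Tlr9 and Tlr13 in 7 groups of the macrophage gate (horizontal axis), with the motolimod library in red left of the control library in dark blue and exact Poisson 95% intervals. Tlr7 in cycling macrophages is at 13.3 CPM with motolimod and 13.5 CPM in the control, and the wide control interval for Gpnmb Cd36 cells comes from 5 cells.

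Neutrophils were divided by the chemokine genes Ccl3 and Ccl4. Those high in both had Tlr13 at 207 CPM with motolimod (1740 cells) and 140 CPM in the control (217 cells), a ratio of 1.47 (1.19 to 1.85). The others had Tlr13 at 187 CPM with motolimod (635 cells) and 118 CPM in the control (258 cells), a ratio of 1.59 (1.21 to 2.11). Tlr13 was thus higher with motolimod in both. Unc93b1 in the others was at 142 CPM with motolimod and 82.4 CPM in the control (1.72, 1.25 to 2.41), and in the Ccl3 Ccl4 high cells at 83.2 and 76.4 CPM (1.09, 0.81 to 1.498). Of the measured genes, 0 of 6 were past 1.5-fold higher in the high cells, where 33.1% of genes were, and 2 of 5 in the others, where 23.8% were. In each, 0 were past 1.5-fold lower, where 14.3% and 15.2% of genes were.

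Other genes of the pathway were taken as 55 genes in 7 lists. In macrophages 9 of 55 were at least 1.5-fold higher and 2 lower, where 11.0% and 8.91% of all genes were, with a median log2 ratio of 0.27 against 0.04 for all genes. The receptors of the cell surface and their relatives gave 3 of 7 higher: Tlr2 at 97.7 CPM with motolimod and 61.7 CPM in the control (1.58), Tlr4 at 30.9 and 20.3 CPM (1.52), and Tlr6 at 8.91 and 4.44 CPM (2.01). These sense lipoproteins and lipopolysaccharide. Of 15 adaptors and kinases, 3 were higher: Irak3, a brake on the pathway, at 22.8 CPM with motolimod and 13.8 CPM in the control (1.65), and Tab2 (1.68) and Map3k7 (1.67), partners in the kinase complex downstream of the receptors.

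The lysosomal nucleases and transport genes gave 2 of 7 higher in macrophages, Rnaset2a (1.74) and Rnaset2b (1.70), close copies among which reads may have been divided uncertainly. Among negative regulators 1 of 6 was higher, Tnfaip3, a ubiquitin-editing enzyme and NF-κB target, at 141 CPM with motolimod and 69.0 CPM in the control (2.04, 1.94 to 2.14). Of 6 transcription factors 0 were higher and 1 lower, Irf7, a driver of interferon genes, at 236 CPM with motolimod and 413 CPM in the control (0.57, 0.55 to 0.59). The NF-κB inhibitor gene Nfkbia was at a ratio of 1.40. Of 5 receptor-cutting proteases 1 was lower, Ctsk, at 5.52 CPM with motolimod and 9.82 CPM in the control (0.56), and of 9 trafficking genes 0 were past 1.5-fold either way.

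In neutrophils 10 of 49 measured genes of the lists were higher and 6 lower, shares below the 25.7% and 19.1% of all genes, with a median log2 ratio of 0.21 against 0.09 for all genes. Adaptors and kinases made up 6 of the 10, led by Irak3 at 112 CPM with motolimod (631 UMIs) and 26.7 CPM in the control (33 UMIs), a ratio of 4.19 (2.95 to 6.14). Irak1 was at a ratio of 3.18 (1.68 to 6.76) and Ikbkg at 3.10 (1.37 to 8.69), on 10 and 6 control UMIs. Tlr2 was at 211 CPM with motolimod and 123 CPM in the control (1.72), and Irf3 at a ratio of 1.88. The lower genes included Pld4 (0.27) and Pld3 (0.54), endolysosomal nucleases, Irf8 (0.31), a factor of monocyte and dendritic lineages, the proteases Lgmn (0.47) and Ctsl (0.63), and Tlr5 (0.66), whose interval from 0.227 to 2.31 spans 1 on 15 motolimod and 5 control UMIs. All 7 macrophage markers were seen in the neutrophil gate, summing to 214 CPM with motolimod and 285 CPM in the control, and their part in these lower levels was not tested.

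Over all lists, 14 of 54 measured genes were higher and 2 lower in monocyte-macrophages, where 14.5% and 16.7% of all genes were. In monocytes 6 of 51 were higher and 1 lower, where 14.6% and 6.90% of all genes were, and in T cells 4 of 43 were higher and 3 lower, where 17.2% and 10.1% were. Surface receptors gave 5 of 6 higher and 1 lower in monocyte-macrophages. In T cells 0 of these 7 reached the minimum of UMIs.

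The genes whose levels most resembled those of Tlr8 over 16 combinations of gate and library were Lpl (Pearson r 0.974), C4b (0.968), Tfec (0.961), Cacna1f (0.955) and Abca9 (0.953), among 11571 genes. For Tlr7 they were Tfec (0.958), Lpl (0.956), Apoc2 (0.950), Ccl9 (0.950) and Adgre1 (0.950), the last being a marker of the macrophage gate. Tlr7 and Tlr8 had an r of 0.926 with each other, while Tlr7 with Tlr3 had 0.404. These values are a description: the combinations share libraries and gates, and most of the spread lies between mononuclear phagocytes and other cells. In macrophages Lpl was at 217 CPM with motolimod and 168 CPM in the control, and Tfec at 19.5 and 16.2 CPM. In the same order, Adgre1 was at 220 and 112 CPM, Apoc2 at 75.4 and 40.7 CPM, and Ccl9 at 363 and 213 CPM. Abca9 was at 8.39 and 4.19 CPM, C4b at 37.3 and 29.5 CPM, and Cacna1f, lower with motolimod, at 5.01 and 6.61 CPM.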

How the data were processed

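Droplet 3′ libraries of CD45-enriched mouse tumour cells were deposited as raw UMI counts per gene and barcode, 1 library per group, per the file headers. The authors used Cell Ranger with mm10, which is version 7.1.0 per the file headers but 5.0.1 per the submitters' processing notes; the setting for intron reads is not given in the sources used here. Barcodes with fewer than 300 genes, fewer than 800 UMIs or over 10% of UMIs from mitochondria were dropped. Gates needed a minimum number and sum of marker UMIs, and barcodes with several lineages were set apart. Counts were summed per gate as CPM with exact Poisson 95% intervals, ratios with exact conditional binomial intervals in gates of at least 100 cells per library, and shares of cells with Clopper-Pearson intervals after thinning to 1000 UMIs, which left out 311 motolimod and 93 control cells too shallow to thin. A gene needed 20 UMIs over both libraries for a count past 1.5-fold. Ratios and their intervals were run on counts simulated with the Poisson error that the intervals assume. That run cannot show how they behave under spread between cells, free RNA or differences in depth.

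The 9 genes, the gates and the lists were chosen with earlier results of these data known. Named pathway genes were the 3 largest absolute log2 ratios per list in macrophages and in neutrophils. The likeness measure used log2(CPM + 1), gates of at least 50 cells and genes of at least 200 UMIs. Alternatives were thinning to 3000 UMIs, looser and stricter gates, a stricter cell filter, Scrublet removal, equal weight per cell and median-of-ratios scaling. Python 3.11.15, numpy 2.4.6, scipy 1.17.1, pandas 2.3.3, scanpy 1.11.5 and matplotlib 3.10.9 were used. Gene positions came from GENCODE on GRCm38.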

Additional observations from a re-analysis of the deposited data

How the results depend on the processing

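No paired analysis was possible because each group has 1 library, and for the same reason no replicate could be left out. In the undivided macrophage, monocyte-macrophage, monocyte, neutrophil and T cell gates, 11 ratios were past 1.5-fold. They kept their direction in all 119 values from 11 alternative settings, and 106 were still past 1.5-fold. All settings reuse the same libraries and largely the same UMIs, so this count is no replicate check. The 11 ratios include that of Tlr3 in monocytes, whose interval spans 1. Ratios of the macrophage and neutrophil subsets were not recomputed. The macrophage Tlr7 log2 ratio, 0.84, was 1.03 with counts thinned to 1000 UMIs, 1.11 in cells of 3000 to 10000 UMIs, 1.27 as a mean over cells and 0.59 after the T cell level was subtracted. Cells of 10000 UMIs and over were not among the settings, and there the Tlr7 ratio was 1.30 (1.14 to 1.49), short of 1.5-fold. The macrophage Tlr8 log2 ratio, 0.50, was -0.035 in cells of 3000 to 10000 UMIs and 0.056 as a mean over cells. The neutrophil Tlr13 log2 ratio, 0.65, was 0.37 with thinned counts, 1.27 under a stricter cell filter and 1.00 with barcodes of several lineages kept, and 6 of its 11 alternatives were past 1.5-fold. The number of genes past 1.5-fold higher in neutrophils, 1, was 0 with looser gates, with the top Scrublet scores removed (694 motolimod and 448 control barcodes) or with median-of-ratios scaling, and 2 under the stricter filter, in cells of 3000 to 10000 UMIs or after subtraction. The share of control Tlr8 UMIs in mononuclear phagocytes was 87.3% with stricter and 78.9% with looser gates. The Tlr9 share of cells in monocyte-macrophages turned at 3000 UMIs, to a log2 ratio of 0.21. The T cell Irf5 ratio ran from 0.52 to 0.97, with 7 of 10 alternatives past 1.5-fold. The cause was not tested in these cases. The depth window and the subtraction were chosen after seeing the data. The limits are depth, which differs between the libraries, and the few UMIs of Tlr3, Tlr8 and Tlr9 per cell.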

Other observations

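Barcodes in no gate made up 13.9% of motolimod cells (1293) and 8.79% of control cells (658). Their 7 neutrophil markers summed to 3633 CPM with motolimod and 180 CPM in the control. They held 9.45% of the Tlr13 UMIs with motolimod and 2.84% in the control, and 6.50% and 2.34% of the Tlr7 UMIs. Their share of the UMIs of all genes was 7.80% with motolimod and 9.02% in the control.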
